A study of Mus musculus with 8 samples.

Results

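The regions described here are the CTCF peaks that the epithelium and the fiber cells of the newborn lens have in common and that lie at the foot of a chromatin loop of the lens. They were selected by measured values. A peak of the lens fiber list on chromosomes 1 to 19 was kept when it overlapped a peak of the lens epithelium list by at least 1 bp and also overlapped an anchor of a loop called in lens epithelium or lens fiber cells. The rule kept 5484 regions of 40301 peaks in both lists together, or 5484 of the 23132 autosomal fiber peaks. The autosomal fiber list held 11556 peaks that were shared with epithelium, so the 5484 regions are the shared peaks at lens anchors and the other 6072 are the shared peaks away from lens anchors.

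CTCF was profiled by ChIP-seq and chromatin contacts by Hi-C in lenses of CD-1 mice at postnatal day 0.5, microdissected by hand into the epithelium, the single layer of dividing cells on the front of the lens, and the fiber cells that differentiate from it. The ChIP-seq lists come from 200 pooled lenses with 5 µl of anti-CTCF antibody and, by the labels, 1 sample for each cell type. The study's methods mention biological replicates of the ChIP-seq, which the lists used here do not separate. The Hi-C loops come from 2 replicates of 30 lenses for each cell type, fixed in 2.0% formaldehyde and merged by the authors before loops were called. The same was done for 2 replicates of v6.5 mouse ES cells, a male wild-type line of mixed strain background. The ES cells were grown without feeder cells in medium with the cytokine LIF. Comparisons of lens and ES cells below are thus also across strains. The labels name no added allele in any group and no agent given to the lenses. With 1 list for each cell type, no difference below has a replicate check and no test was possible. The intervals are 95% intervals over peaks or loops and cover counting error only, and the read depth behind the ChIP-seq lists is unknown. For the Hi-C, the study reports contact totals, most in fiber and fewest in epithelium, and calls them similar. The loop lists were not adjusted for them here. A lower fold in such pooled tissue can come from fewer cells with bound CTCF or from less CTCF per cell. It can also come from the immunoprecipitation, background or depth of the library. These cannot be told apart.

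CTCF is a zinc-finger protein that binds a long, GC-rich DNA motif with a direction. The cohesin ring extrudes DNA into loops until it meets bound CTCF, so that loop anchors in mammalian cells often hold CTCF sites that face each other. CTCF sites are also found at the borders of topologically associating domains (TADs), and many are bound alike in unrelated cell types. In the lens, the surface layer and the fibers share their origin but differ in gene expression, the fibers being filled with crystallins and losing their nuclei.

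Sequences were available for the stretch from 250 bases before to 50 bases after the annotated gene starts, taken from RefSeq on GRCm38.p6, the patch release of the mm10 build of the lists. The summits of the shared anchor peaks fell in 125 of these 300-base windows. The 9-base core of the CTCF motif, AGGGGGCGC, searched on both strands, was present in 28 of the 125 windows, or 22.4% (Wilson interval 16.0% to 30.5%), and in 1.28% of all 31396 windows. The core lay close to the summit, at a median of 12.5 bp, and within 50 bp of it in 24 of 28 windows. A looser core, AGNNGGCGC, which includes the first one, was present in 43.2% of the 125 windows and in 7.38% of all windows. The 5 sites with the highest fiber fold enrichment are printed because they show the letters under the strongest of these peaks, with the core in capitals and 10 bases on either side, each read 5′ to 3′ on the strand of the core.
Rai1: cgcgggcgccAGGGGGCGCtgtcggggcg
Pdzd9: aatggccaccAGGGGGCGCtgcaaggctg
Synm: tctgtccggcAGGGGGCGCtgtccggccg
Pde2a: atagaacaccAGGGGGCGCaggagcgtca
Pds5b: tgcggccggtAGGGGGCGCtgagaaccca

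The site of Rai1, which encodes a nuclear regulator of transcription, lay at chr11:60104893-60104921 on the plus strand, with its core centred on the summit of a peak of 18.1-fold enrichment in fiber and 9.41-fold in epithelium. The site of Pdzd9, a gene for a PDZ-domain protein, at chr7:120670332-120670360 on the plus strand, was under a peak of 15.8-fold in fiber and 11.3-fold in epithelium. Synm encodes synemin, an intermediate filament protein, and its site at chr7:67759846-67759874 on the minus strand was under a peak of 15.8-fold and 9.39-fold. The site of Pde2a, a cyclic nucleotide phosphodiesterase gene, at chr7:101450510-101450538 on the plus strand, was under a peak of 13.7-fold in fiber but 4.76-fold in epithelium. Pds5b, which encodes a regulator of cohesin, had its site at chr5:150673688-150673716 on the plus strand, under a peak of 12.8-fold and 5.17-fold. These peaks were chosen by fiber fold, which favours a higher fold in fiber than in epithelium. That order held in 81.4% of all 5484 regions. The windows of Rai1, Pdzd9 and Synm were at anchors of both lens loop lists.

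The letters around the core were also alike among the 28 sites. The letters present in at least 50% of the sites, with n where no letter reached that share, are shown for the 28 sites of the shared anchor peaks, for the 49 sites of shared peaks away from anchors, and for 197 promoter windows in which the core lay in no lens CTCF peak.
Shared, at anchors: nnnggccnccAGGGGGCGCtgnngnncng
Shared, away: nnnggccgccAGGGGGCGCnnnngnnnnn
No peak: nnnnnnnnggAGGGGGCGCnnnnnnnnnn
The 2 bases before the core were CC in 14 of 28 anchor sites, or 50%, in 23 of 49 sites away from anchors, or 46.9%, and in 14 of 197 sites under no peak, or 7.11%. The core was no more frequent at the anchors than away from them. It was present in 49 of 162 windows with a shared peak away from anchors, or 30.2% (23.7% to 37.7%), whose interval overlaps that of the anchor peaks. It was present in 13.9% of 237 windows with a peak of the fiber list alone at an anchor. The interval of that share, 10.1% to 18.9%, overlaps that of the shared anchor peaks. A match is a description of letters and not evidence of binding, and the peaks outside promoter windows were not searched.

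Of the 11556 shared peaks, 47.5% (46.5% to 48.4%) lay at a lens anchor. The share was 41.8% (40.9% to 42.7%) among 11576 fiber peaks with no counterpart in epithelium, a ratio of 1.13 (Katz interval 1.10 to 1.17), and 20.1% among 4242 epithelium peaks with no counterpart in fiber. These values describe the selection itself and carry no test. The share of shared peaks at anchors was above that of fiber-alone peaks on 19 of 19 autosomes, and it ran from 39.0% on chromosome 8 to 56.9% on chromosome 18. The overlap with the epithelium peak was substantial. Its median was 241 bp, it covered over 50% of the fiber peak in 96.6% of the 5484 regions, and the smallest was 43 bp. At the other limit of the rule, 153 regions were only partly inside their anchor, the smallest overlap being 8 bp, and had a median fiber fold of 8.76. The 234 shared peaks that missed an anchor by at most 1 kb had a median fiber fold of 7.86, and the 5257 that lay more than 5 kb outside had 6.98.

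The shared anchor peaks had a higher fold enrichment in fiber than the shared peaks away from anchors, while their fold in epithelium was almost the same. Fold enrichment here is the read pileup at the summit over the local background, as given by the peak caller. The median fiber fold was 8.31 (8.22 to 8.39) at anchors, with quartiles of 6.68 and 10.2, and 7.08 (7.02 to 7.17) away from them, a ratio of 1.17. The median epithelium fold of the same peaks was 6.23 (6.17 to 6.30) at anchors and 6.12 (6.06 to 6.18) away, a ratio of 1.02. The fiber median was higher at anchors on 19 of 19 autosomes and the epithelium median on 15 of 19. The fiber fold exceeded the epithelium fold in 81.4% of the shared anchor peaks and in 67.7% of the shared peaks away from anchors, with a median log2 ratio of 0.38 (0.36 to 0.39) against 0.19 (0.18 to 0.21). The lists were not scaled to each other. A single common factor would shift both log2 ratios alike, but a bias that varies with peak strength could shift them unequally. Whether there is such a bias was not tested. Across the 5484 regions the folds of the lists had a Spearman rho of 0.45, given as a description of peaks that share their libraries.

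**Figure D1:**
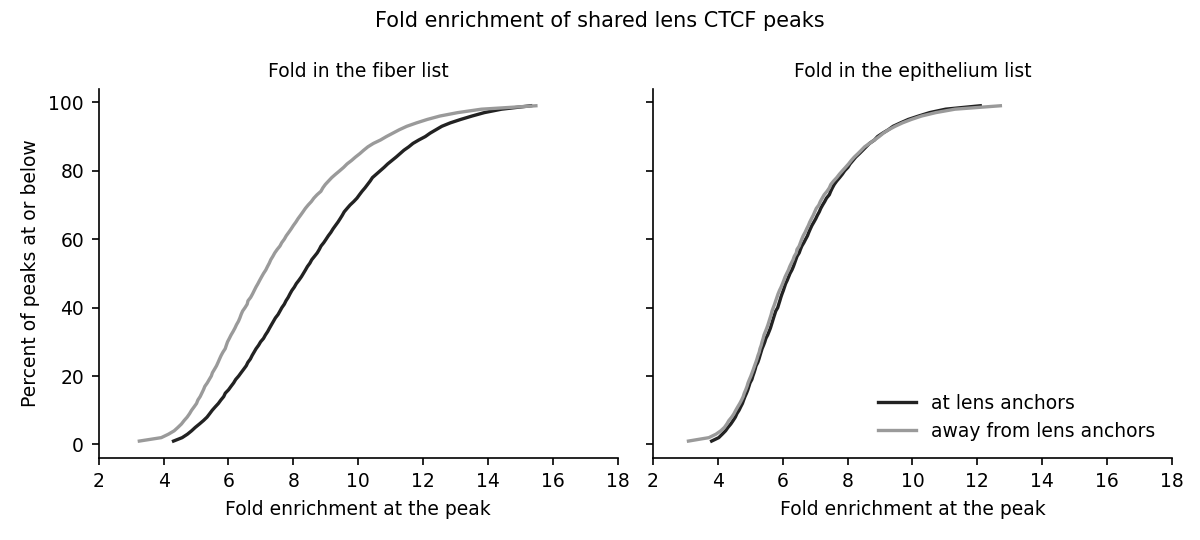
Percent of peaks at or below each fold enrichment (percentiles 1 to 99), in the fiber list on the left and the epithelium list on the right, for the 5484 shared peaks at lens anchors (black) and the 6072 away from them (grey). The curves are apart in fiber, with medians of 8.31 and 7.08, and nearly coincide in epithelium, with medians of 6.23 and 6.12.

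The contrast between the lists became clearer when the 11556 shared peaks were ranked and divided into 10 deciles of equal size. Ranked by fiber fold, 28.2% (25.7% to 30.9%) of the lowest decile and 63.4% (60.6% to 66.1%) of the highest decile lay at a lens anchor, and the share was higher in each decile than in the one below it. Ranked by epithelium fold, the share was 43.8% (40.9% to 46.6%) in the lowest decile and 47.1% (44.2% to 49.9%) in the highest, and it stayed between 43.8% and 51.2% in all deciles. The pattern was alike with the anchors of each loop list, although the lists overlap. Of the shared peaks at epithelium anchors, 3245 were also at a fiber anchor and 1113 were not. At all anchors of the epithelium loop list, the share went from 21.7% to 51.0% across deciles of fiber fold and from 34.4% to 37.5% across deciles of epithelium fold. At ES cell anchors, which the rule did not use, it went from 21.6% to 47.2% and from 33.1% to 35.4%. Peaks of the fiber list alone had the same gradient, from 28.2% in their lowest decile to 58.3% in their highest.

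**Figure D2:**
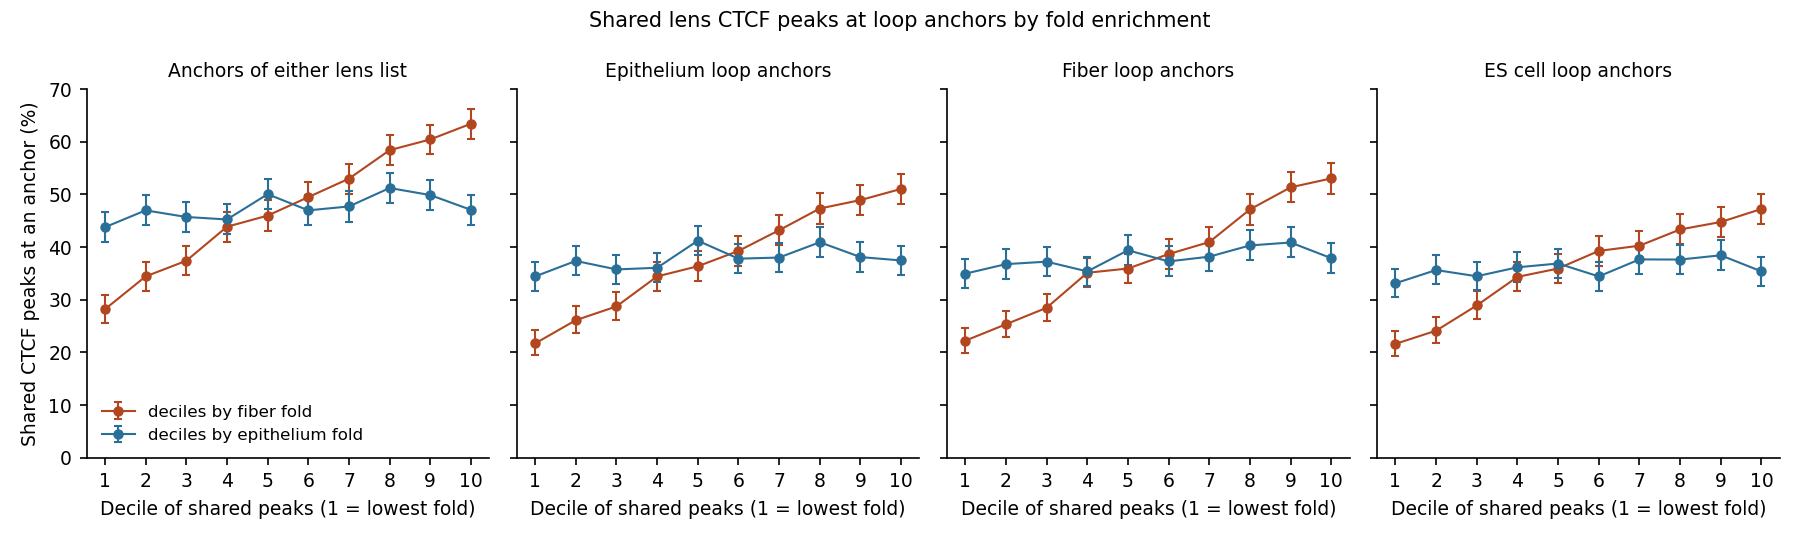
Share of the shared CTCF peaks at a loop anchor (percent, vertical axis) in deciles of the peaks by fiber fold (red) or epithelium fold (blue), for anchors of either lens list, of each lens list and of ES cells. Points are shares of 1155 or 1156 peaks and bars are Wilson 95% intervals. In each panel the red points climb from the lowest to the highest decile and the blue points stay nearly level.

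At a fixed fiber fold, a higher epithelium fold went with a lower share at anchors. Among shared peaks in the lowest quartile of fiber fold, the share fell from 34.5% (31.8% to 37.3%) in the lowest quartile of epithelium fold to 26.2% (21.3% to 31.8%) in the highest. In the second quartile of fiber fold it fell from 48.1% (44.8% to 51.4%) to 34.9% (30.7% to 39.3%), and in the third from 57.0% (53.0% to 61.0%) to 47.9% (44.3% to 51.6%). In the highest quartile the values were 63.5% (57.6% to 69.0%) and 58.8% (56.2% to 61.3%), whose intervals overlap. The order was alike at epithelium anchors, where the second quartile of fiber fold went from 38.7% to 26.7%. The share of peaks at gene ends moved the same way, from 4.99% to 2.10% in that second quartile, and its part in the result was not tested.

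**Figure D3:**
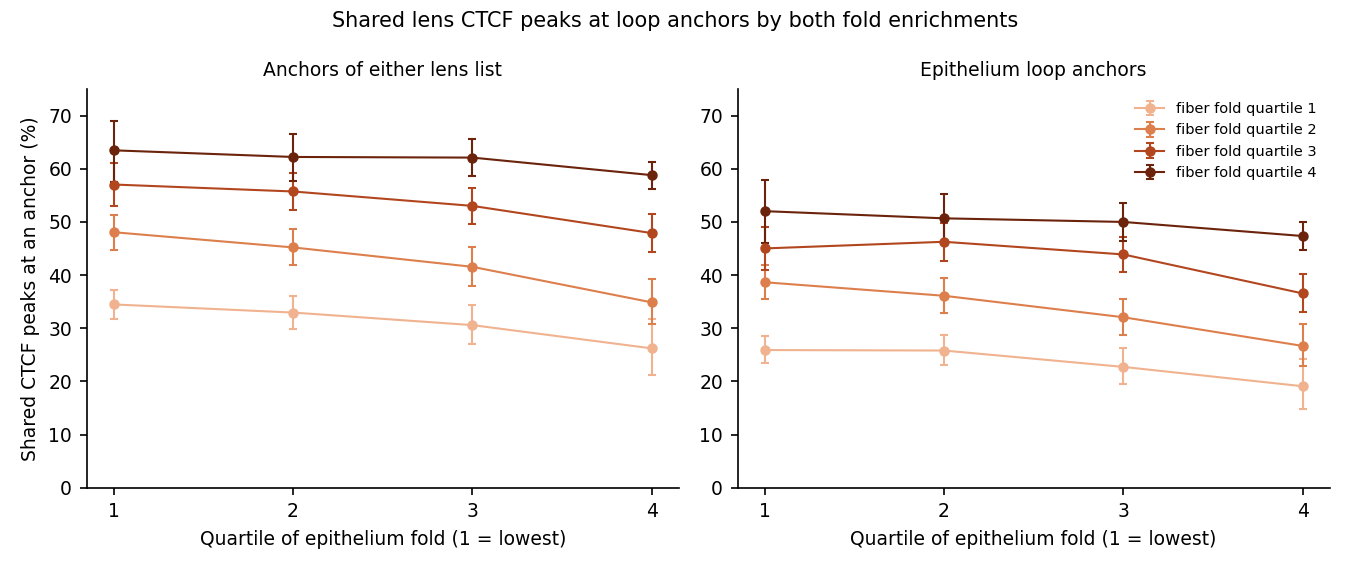
Share of the shared CTCF peaks at a loop anchor (percent) against the quartile of epithelium fold, with one line for each quartile of fiber fold, for anchors of either lens list (left) and of the epithelium list (right). Bars are Wilson 95% intervals. The lines are ordered by fiber fold and slope down with epithelium fold, from 48.1% to 34.9% for the second fiber quartile on the left.

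The 10 shared anchor peaks with the highest fiber fold had folds of 18.2 to 26.4, with epithelium folds between 11.2 and 23.2. No filter for regions of high background was applied here, and whether background adds to these folds was not tested. Picking them by fiber fold by itself favours a lower epithelium fold. Fiber had the higher fold in 81.4% of all 5484 regions. The highest, at chr9:24541924-24542267, was 26.4-fold in fiber and 23.2-fold in epithelium. It lay 14.9 kb from the end of Dpy19l2, a gene needed for sperm head formation, at the foot of a 500 kb loop called in both lens cell types. The second, at chr11:109011675-109012172, was 24.0-fold and 17.0-fold and lay 61.1 kb from Axin2, an inhibitor of Wnt signalling. Its anchor belonged to a loop of 54870 kb in both lists, described below. The third, at chr16:57391067-57391752, was 23.1-fold and 18.96-fold and lay inside the overlapping genes Cmss1 and Filip1l. The next 4 had 20.2-fold near Gapt, 19.5-fold near Map3k9, 19.1-fold inside Cyria, a gene for a regulator of the actin cytoskeleton, and 18.9-fold inside Peak1, which encodes a pseudokinase. The last 3 were 18.8-fold near Pex2, a peroxisome assembly gene, 18.3-fold inside Camk1d, a calcium-dependent kinase gene, and 18.2-fold inside Mgst1, a glutathione transferase gene. Of the 10 peaks, 5 were at anchors of both lens lists, 3 of the epithelium list and 2 of the fiber list, and 7 were also at an ES cell anchor.

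A different end of the list was a single outsized region. The widest shared anchor peak, chr17:39843647-39848284, covered 4638 bp and had the lowest fiber fold of all 5484, at 2.95, with 2.48 in epithelium. The next widest covered 866 bp and the median width was 308 bp. It was named after its values were seen. RefSeq places the 18S ribosomal RNA pseudogene Rn18s-rs5 inside it, at chr17:39846354-39848202, and the start of the long non-coding RNA AY036118 at its edge. The region was in an anchor of loops of 3615 and 16160 kb in both lens lists.

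The shared anchor peaks were found at ES cell anchors far more often than the shared peaks away from lens anchors. Of the 5484 regions, 3253 lay at an ES cell loop anchor, or 59.3% (58.0% to 60.6%), against 905 of 6072 away from lens anchors, or 14.9% (14.0% to 15.8%), a ratio of 3.98 (3.73 to 4.24). The share was higher on 19 of 19 autosomes. The difference was present within each quartile of fiber fold, where the shares were 52.9%, 58.5%, 59.7% and 63.0% at lens anchors and 9.79%, 15.5%, 18.2% and 18.9% away from them, from the lowest quartile to the highest. The overlap with ES cell anchors was nearly as frequent for peaks seen in fiber alone. Fiber-alone peaks at lens anchors were at an ES cell anchor in 54.2% (52.8% to 55.6%) of cases, so that sharing between lens cell types went with a ratio of 1.10 (1.06 to 1.13).

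The 5484 regions divided into 3245 at anchors of both lens lists, 1113 at anchors of the epithelium list only and 1126 at anchors of the fiber list only. Regions at anchors of both lists were at an ES cell anchor in 68.9% (67.3% to 70.5%) of cases, against 47.6% (44.7% to 50.6%) for the epithelium list only and 43.2% (40.4% to 46.2%) for the fiber list only. The median fiber fold was 8.51 (8.39 to 8.63) at anchors of both lists, 7.95 (7.79 to 8.13) at epithelium-only anchors and 8.10 (7.87 to 8.29) at fiber-only anchors. The epithelium fold was alike in the classes, at 6.23, 6.18 and 6.27. The balance of fold between the CTCF lists was alike in the single-list classes and leaned further to fiber at anchors of both lists. The median log2 ratio of fiber over epithelium fold was 0.41 (0.39 to 0.43) at anchors of both lists. It was 0.32 (0.30 to 0.36) at epithelium-only anchors and 0.34 (0.31 to 0.37) at fiber-only anchors. Of the regions at epithelium-only anchors, 37.4% had a fiber anchor within 5 kb and 65.1% within 25 kb. The corresponding values for fiber-only anchors were 37.7% and 68.4%.

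TAD borders showed the same order. A border of either lens TAD list lay within 10 kb of the summit in 35.9% (34.6% to 37.1%) of the shared anchor peaks and in 12.2% (11.4% to 13.1%) of the shared peaks away from anchors, a ratio of 2.93 (2.72 to 3.16). The share was 33.3% for fiber-alone peaks at anchors. Among the shared anchor peaks it was 34.8% (31.8% to 37.9%) in the lowest and 36.4% (34.2% to 38.7%) in the highest quartile of fiber fold, while among the shared peaks away from anchors it went from 9.79% (8.55% to 11.2%) to 14.8% (12.8% to 16.9%). With the ES cell TAD list, whose maps the rule did not use, the values were 31.1% at anchors and 15.1% away, a ratio of 2.05 (1.91 to 2.20). The TADs and loops of a cell type were called on the same contact map, and how much of the overlap comes from that was not tested.

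A smaller share of the shared anchor peaks than of the other fiber peaks was at the ends of genes. The share to be found there by position alone was not computed. A summit lay within 500 bp of an end of a protein-coding gene in 228 of 5484, or 4.16% (3.66% to 4.72%), against 5.40% (4.86% to 6.00%) of the shared peaks away from anchors, a ratio of 0.770 (0.653 to 0.908). The fiber-alone peaks at anchors reached 8.67% (7.91% to 9.50%). The gap between the shared sets came with high fold. It was 4.68% (3.79% to 5.78%) against 10.9% (9.22% to 12.8%) in the highest quartile of fiber fold, and 3.94% (2.88% to 5.39%) against 3.08% (2.40% to 3.94%) in the lowest. The position inside genes did not separate the sets, with 43.4% (42.1% to 44.7%) of summits inside a protein-coding gene at anchors and 44.5% (43.3% to 45.8%) away from them.

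**Figure D4:**
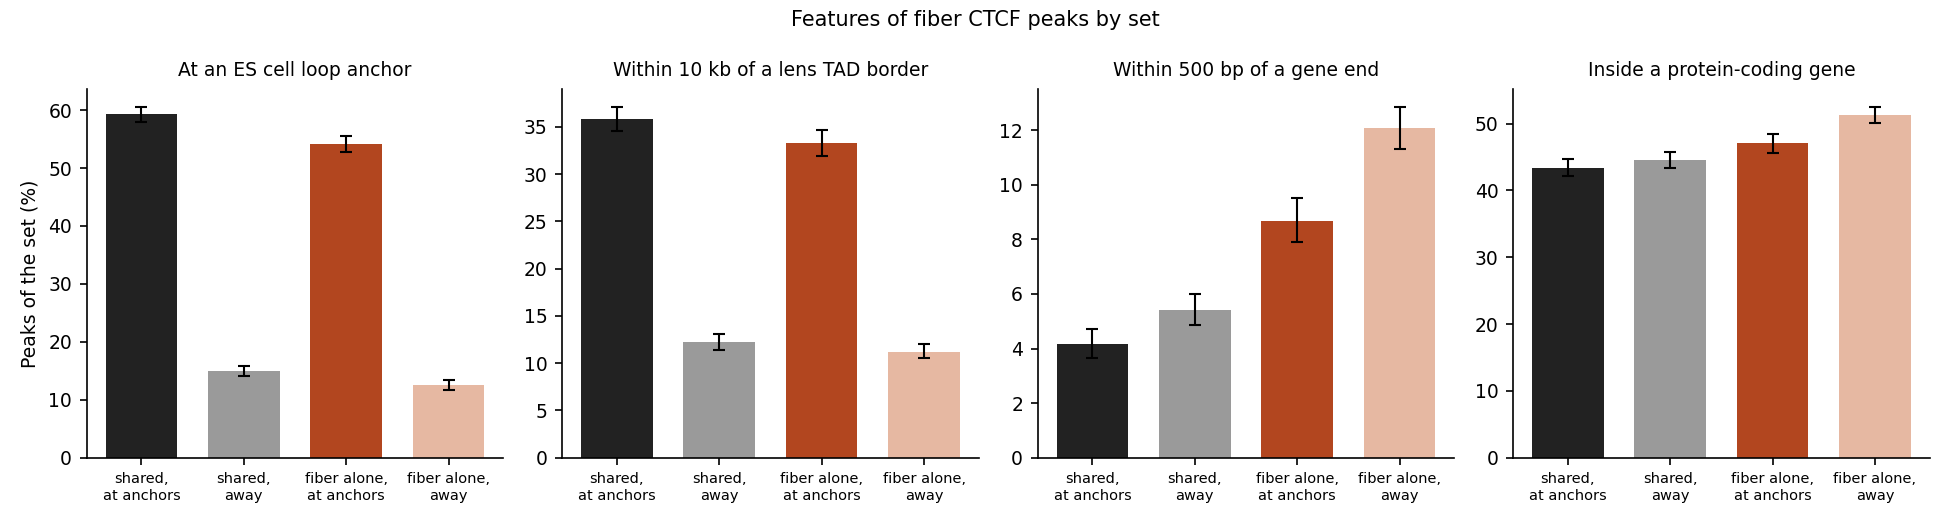
Share of peaks (percent, vertical axes starting at 0 and differing in scale) at an ES cell loop anchor, within 10 kb of a TAD border of either lens list, within 500 bp of a gene end and inside a protein-coding gene, for the shared peaks at and away from lens anchors and the peaks of the fiber list alone at and away from them. Bars are Wilson 95% intervals. Peaks at anchors are higher in the left panels, 59.3% against 14.9% of shared peaks for ES cell anchors, and lower at gene ends, 4.16% against 5.40% of shared and 8.67% against 12.1% of fiber-alone peaks.

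Most anchors had no such peak, and few had several. The anchors of both lens lists merged into 15001 regions that covered 266.1 Mb. Of these, 10102 held none of the 5484 peaks, or 67.3%, 4330 held 1, 510 held 2 and 59 held 3 or more, the most being 4. Another fiber peak was present in 3446 of the regions without one. Within the narrowest anchor that held it, the summit lay toward the middle in 10 kb anchors and was spread more evenly in the others. It lay in the middle 50% of the anchor in 52.7% (50% to 55.4%) of 1311 peaks in 5 kb anchors, 55.3% (53.2% to 57.3%) of 2340 in 10 kb anchors and 51.2% (48.9% to 53.5%) of 1789 in 25 kb anchors. In 10 kb anchors, 24.5% (22.8% to 26.3%) of summits were within 1 kb of the midpoint and 16.1% (14.6% to 17.6%) were 4 to 5 kb from it, equal lengths of the anchor. In 5 kb anchors the innermost and outermost bins of equal length held 21.6% (19.4% to 23.9%) and 18.4% (16.4% to 20.6%), and in 25 kb anchors 19.5% and 18.8%.

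Loops that had a shared CTCF peak at both anchors were a minority. They numbered 1035 of 7840 autosomal epithelium loops, or 13.2% (12.5% to 14.0%), and 1060 of 7502 fiber loops, or 14.1% (13.4% to 14.9%). Loops with none at either anchor made up 43.0% and 41.0%. Because wide anchors hold more peaks, loops were compared by anchor width. Among epithelium loops with 10 kb anchors, the median ratio of observed to expected contacts, with the expected count from the donut-shaped neighbourhood of the loop pixel, was 3.61 (3.51 to 3.72) with the peak at both anchors, 3.26 (3.21 to 3.32) with it at 1 anchor and 3.13 (3.09 to 3.20) with none. In fiber the values were 3.22 (3.12 to 3.36), 3.05 (3.01 to 3.10) and 2.92 (2.86 to 2.95). With 25 kb anchors the order was the same, 2.62 against 2.40 in epithelium and 2.50 against 2.33 in fiber for loops with both and none. With 5 kb anchors the epithelium values were 5.16 (4.99 to 5.38) and 4.94 (4.80 to 5.11), whose intervals overlap. The comparison of all widths together gave 3.19 against 3.02 in epithelium and 2.88 against 2.81 in fiber. With the expected count taken from the lower-left neighbourhood of the pixel, the ratio of these medians fell from 1.06 to 1.00 in epithelium and turned from 1.03 to 0.993 in fiber.

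Loops with the peak at both anchors were also those most often called again. Among epithelium loops, 64.4% (61.5% to 67.3%) of those with both and 51.2% (49.5% to 52.8%) of those with none were also in the fiber list, allowing 10 kb between midpoints. For 5 kb anchors the shares were 94.3% (89.9% to 96.9%) and 74.7% (71.4% to 77.9%). Among fiber loops, 61.1% (58.2% to 64.0%) against 56.4% (54.6% to 58.1%) were also in the epithelium list, and for 5 kb anchors 88.9% (82.9% to 92.9%) against 82.3% (78.8% to 85.3%), whose intervals overlap. In the ES cell list, which the rule did not use, 48.6% (45.6% to 51.6%) of epithelium loops with both and 32.7% (31.1% to 34.3%) of those with none were found, and 45.5% (42.5% to 48.5%) against 34.5% (32.9% to 36.2%) of fiber loops. Over all widths these loops were longer, with a median of 300 kb against 225 kb in epithelium and 325 kb against 230 kb in fiber, but more of them had 25 kb anchors, 46.1% against 36.1% in epithelium and 49.3% against 36.3% in fiber. With 5 kb anchors the medians were 155 kb (135 to 175) against 150 kb (130 to 160) in epithelium and 165 kb (140 to 195) against 150 kb (135 to 165) in fiber, and these intervals overlap. With 10 kb anchors they were 240 kb (200 to 250) against 160 kb (150 to 180) and 220 kb (190 to 250) against 170 kb (160 to 190). The strengths of the peaks at the ends showed little relation. In loops with exactly 1 such peak at each anchor, the Spearman rho of their fiber folds was 0.06 over 821 epithelium loops and 0.05 over 824 fiber loops, many of which share an anchor or occur in both lists.

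One loop with the peak at both anchors stood far from the rest, and was named after its values were seen. It joined chr11:54140001-54145000 to chr11:109010001-109015000, a span of 54870 kb, with peaks of 10.2-fold and 24.0-fold in fiber. It had 43 observed contacts in epithelium and 56 in fiber, against donut-expected counts of 0.0211 and 0.0393, so that observed exceeded expected 2041-fold and 1426-fold. It was called in both lens cell types and in ES cells. Of the epithelium loops with the peak at both anchors, 8 were over 3 Mb, with a median ratio of 3.92, and in fiber 9 were, with a median of 3.43. The next longest loop with the peak at both anchors spanned 4275 kb in either list. Why this pair of sites gave so many contacts was not tested.

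**Figure D5:**
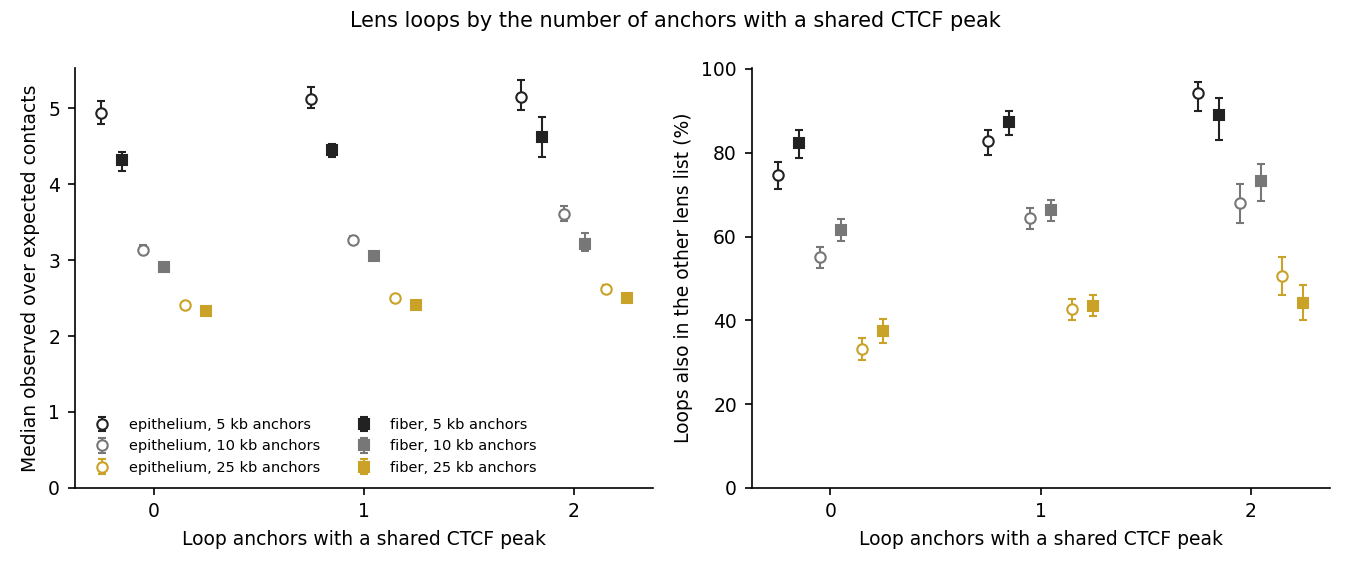
Median observed over donut-expected contacts (left) and percent of loops also in the other lens list (right) against the number of loop anchors with a shared CTCF peak, for epithelium (open circles) and fiber loops (filled squares) with 5 kb (black), 10 kb (grey) and 25 kb (yellow) anchors. Bars are 95% intervals. Values are highest with the peak at both anchors for every width, with 3.61 against 3.13 for epithelium loops of 10 kb anchors. Narrower anchors have higher values throughout. Loops were matched within 10 kb between midpoints at every width, which is less than a 25 kb anchor, so the right panel does not compare widths on equal terms.

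Some of the peaks served many loops. A loop listed in both lens cell types was counted in each list. Of the 5484, 1980 were in the anchor of 1 lens loop, 1770 of 2, and 387 of 5 or more. The share in 3 or more loops went from 27.1% in the lowest to 35.4% in the highest quartile of fiber fold among the 5484. The largest number was 12, for a peak at chr16:23984219-23984535 inside Bcl6, which encodes a transcriptional repressor. It had moderate folds of 7.84 in fiber and 7.82 in epithelium and was in 6 epithelium loops of 400 to 1350 kb and 6 fiber loops of 400 to 1360 kb. The second was in 10 loops, at chr15:56336510-56336786, 329 kb from the end of Has2, a hyaluronan synthase gene, with folds of 7.28 and 6.39. The third was in 9 loops, at chr2:160578734-160579040, 67.0 kb from Top1, a topoisomerase gene, with folds of 8.97 and 5.50. A neighbour at chr2:160597854-160598201, 47.9 kb from Top1, was in 8 loops. A total of 10 peaks were in 8 loops, of which those with the highest fiber fold were taken. The other 6 of them were inside Mgst1, 16.8 kb from Nr2f2, a nuclear receptor gene, 8.82 kb from Glrx3, 86.7 kb from Pabpc6, 2.77 kb from Maf and 4.48 kb from the histone gene H2ac12. Apart from the Mgst1 peak, which was 18.2-fold, their fiber folds were between 7.26 and 12.5. All 10 were at anchors of both lens lists and 8 of them at an ES cell anchor.

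Genes of the lens were then examined from lists drawn up for this tissue. Of all 20665 autosomal protein-coding genes, 242 had a shared anchor peak within 500 bp of an end, or 1.17%, and 3528 had one inside or within 10 kb, or 17.1%. Against that 17.1%, the count was 4 of 18 crystallin genes, or 22.2%, 11 of 30 lens transcription factor genes, or 36.7%, 10 of 25 genes of lens membranes and cytoskeleton, or 40%, and 6 of 30 growth factor signalling genes, or 20%. It was 4 of 14 cell cycle exit genes, or 28.6%, 5 of 15 CTCF and cohesin genes, or 33.3%, and 12 of 39 Hox genes, or 30.8%, where several Hox genes share a peak. Long genes have more room for a peak, and the lists were not matched for length.

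The crystallins are the main soluble proteins of the lens. None had a shared anchor peak at its ends, and those with one within 10 kb had it outside the gene. The peak 8.87 kb from Cryga, at chr1:65112055-65112445, was strong, at 16.8-fold in fiber, and lay at the foot of a 65 kb epithelium loop and a 60 kb fiber loop and at an ES cell anchor. The peak 5.51 kb from Cryba4, at chr5:112240794-112241105, was 6.40-fold and in a 100 kb epithelium and an 80 kb fiber loop. The peak 9.10 kb from Crybb3, at chr5:113091171-113091510, was 12.1-fold, in a 130 kb fiber loop and in no epithelium anchor. Whether the epithelium list held a matching loop nearby was not examined for the genes named here and below. The peak 9.48 kb from Crygs, a gene named after its values were seen, was 9.39-fold, in a 140 kb fiber loop and in no epithelium anchor. None of the beta-crystallin peaks was at an ES cell anchor.

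Among the regulators, Pitx3, a homeodomain factor needed for lens development, had a shared anchor peak at its end. The peak, at chr19:46135326-46135570, lay 218 bp inside the gene and 0.498 kb from a lens TAD border, with a fiber fold of 6.44, in a 120 kb epithelium loop and fiber loops of 115 and 170 kb. Sox2, a factor of the early lens, had 2 such peaks, 2.12 kb and 9.08 kb from its end, with fiber folds of 8.20 and 8.57. Both were in anchors of the same loops, of 400 and 840 kb in both cell types and of 325 kb in the fiber list. Maf, which drives fiber cell genes, had the peak of 8 loops at chr8:115709517-115709812, with a fiber fold of 7.40, epithelium loops of 425, 660, 725 and 950 kb and fiber loops of 325, 440, 650 and 725 kb. Hsf4, a heat shock factor of fiber cells, had one 9.58 kb away, of 8.35-fold, in a 600 kb fiber loop and in no epithelium anchor. Casz1, a zinc-finger factor gene, had 2 inside it, of 6.57-fold and 6.42-fold, in a 100 kb epithelium and a 175 kb fiber loop. Efna1, an ephrin gene, had one 1.16 kb away, of 8.62-fold, in a 35 kb epithelium loop and in no fiber anchor. Whether the fiber list held a matching loop nearby was not examined.

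In the signalling and cell cycle lists, Fgfr1, a receptor for the fibroblast growth factors that direct fiber differentiation, had a shared anchor peak 410 bp inside its end, at chr8:25575189-25575428. The peak was 7.54-fold in fiber, lay 0.307 kb from a lens TAD border and was in a 300 kb loop of both lens lists. The cell cycle genes with a peak inside or within 10 kb, named after their values were seen, were the cyclin genes Ccnd1 and Ccnd2 and the inhibitor genes Cdkn1a and Cdkn1c. The peak inside Ccnd1 was 10.2-fold and in epithelium loops of 180 and 305 kb and a fiber loop of 290 kb. Those inside Ccnd2 were 8.02-fold and 12.1-fold. The peak inside Cdkn1a was 11.9-fold, in a 50 kb fiber loop and in no epithelium anchor. Cdkn1c had peaks 3.06 kb and 5.43 kb away, of 7.92-fold and 8.06-fold. The first was in a 170 kb epithelium loop and in no fiber anchor.

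The machinery of looping itself had such peaks at Pds5b and Esco1, whose product acetylates cohesin. The Pds5b peak, whose sequence is printed above, lay 69 bp outside the gene. It was at the foot of a 690 kb fiber loop and in no epithelium anchor. The Esco1 peak, at chr18:10610281-10610602, lay 405 bp inside the gene and was 10.7-fold in fiber. It was in a 90 kb fiber loop and in no epithelium anchor. The other genes of this list with a peak within 10 kb, named after their values were seen, were Ctcfl, a germline relative of CTCF, the cohesin loader gene Nipbl and the cohesin subunit gene Smc3. Ctcfl had peaks of 8.10-fold and 6.97-fold, Nipbl of 5.24-fold and Smc3 of 8.37-fold, the last in fiber loops of 275, 1450 and 1575 kb and in none of the epithelium list.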

How the data were processed

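CTCF ChIP-seq peak lists of lens epithelium and fiber cells and merged Hi-C loop and TAD lists of both and of ES cells were analysed. The authors aligned ChIP-seq reads with BWA and called peaks with MACS2, one deposited list per cell type. The deposited lists give, as the authors' peak caller wrote them, a score, a fold enrichment (a ratio to local background), −log10 p-values and −log10 q-values, and coordinates. The authors aligned Hi-C reads with BWA, merged replicates with Juicer and called loops (HiCCUPS, juicer_tools 2.13.06 per the file headers) and TADs (Arrowhead). The deposited loops give observed contact counts, expected counts as a non-negative signal and 4 FDR q-values. The build is mm10 per the submitters' processing notes. Versions of the other tools are not given in the sources used here.

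Overlaps, distances and intervals (Wilson for shares, order statistics for medians, Katz for ratios, 95%) were computed with Python 3.11.15, pandas 2.3.3 and scipy 1.17.1, and the functions were checked on simulated data. Gene ends and promoter windows came from RefSeq on GRCm38.p6, and no promoter window of chromosome 18 was used. A lens gene list counts as met within 10 kb. Genes were named by rule: the 10 peaks with the highest fiber fold, the 10 in most lens loops, list genes with a peak within 500 bp of an end or drawn in the study and within 10 kb, and the 5 promoter sites of highest fold with the core. Chromosome 18 was not used for printed sequence. The regions, lists and rules were chosen with earlier results of these data known. ChIP-seq replicates, input and reads were not analysed here.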

Additional observations from a re-analysis of the deposited data

Results flagged for a closer look

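The rule keeps to autosomes, so chromosome X entered no comparison above. It held 97 shared CTCF peaks at lens loop anchors of 357 shared fiber peaks, or 27.2% (Wilson interval 22.8% to 32.0%), below the share on each autosome, of which the lowest was 39.0% on chromosome 8. These peaks had a median fiber fold of 7.95 at anchors and 6.85 away from them, and 50 of the 97 lay at an ES cell anchor. They stand here because they are a signal in data the report did not use, and the cause of the lower share was not tested.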

How the results depend on the processing

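No paired analysis was possible because the replicates were merged into 1 list for each cell type. A ratio of shares, or a share of the shared peaks or of the loops, is given here where it left its own 95% interval. A number is given where it moved by over 1.5 times, and a ratio of medians where it moved by over 10% or changed direction. The shares of the kept regions at ES cell anchors, TAD borders and gene ends are given as ranges. With the stronger 50% of each list, 2893 regions remained of 5484, or 53.6% of shared peaks, and the ratio of epithelium folds, 1.02 otherwise, turned to 0.989. The ratio at ES cell anchors was then 3.63 and at gene ends 0.622, and 4.32% of epithelium and 4.72% of fiber loops had a member of the set at both anchors. With anchors widened by 5 kb the share of shared peaks at anchors was 54.5%, the TAD border ratio 3.79 and the loop shares 20.7% and 22.5%. With anchors of 5 and 10 kb only these were 32.1%, 2.71, 12.1% and 12.4%, and the contact ratio of fiber loops with both over none was 1.13. With all 4 FDR values under 0.01 they were 44.0%, 2.64, 14.2% and 15.2%. With fiber anchors only, the share was 37.8%, the ES cell ratio 3.12 and the TAD border ratio 2.35, and with epithelium anchors only 37.7%, 3.28 and 2.57. Requiring summits within 100 bp gave loop shares of 12.4% and 13.2%, and a reciprocal overlap of at least 50% gave 12.3% and 13.2%. The TAD border ratio was 3.28 at 5 kb, 2.25 at 25 kb and 2.05 with the ES cell list. The contact ratio of fiber loops was 0.993 with lower-left expected counts. The ratio of fiber folds kept its direction under all 10 alternatives, from 1.08 to 1.18. So did the ratios at ES cell anchors, from 3.12 to 4.20, at gene ends, from 0.622 to 0.855, and at TAD borders, from 2.05 to 3.79. The shares of the kept regions moved more. At ES cell anchors the share, 59.3% in the main setting, ran from 54.7% to 68.7%. At TAD borders it was 35.9% and ran from 22.8% with a limit of 5 kb to 52.0% with 25 kb. At gene ends it was 4.16% and ran from 3.64% to 11.45%, the highest with a limit of 2000 bp. The causes of these shifts were not tested, and with no depth in the lists, peaks of low fold limit the precision.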
